A study of Rattus norvegicus with 12 samples.

Results

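The miR-29 family was examined in the left ventricle of rats with chronic heart failure. The members were the 4 mature miRNAs rno-miR-29a-3p, rno-miR-29b-3p, rno-miR-29c-3p and rno-miR-29c-5p (written without rno in the rest), taken by name among the 758 rat miRNAs of an Agilent array, and all 4 were on it. Male Wistar rats had the left anterior descending coronary artery ligated (MI group, which the labels call chronic heart failure) or the same operation without the ligature (Sham group). Ligated rats were kept as infarcted after an electrocardiogram and a measurement of ejection fraction. Weeks after surgery, the Sham and MI rats received saline intraperitoneally, and the third group of infarcted rats (YQFM group) received Yiqifumai injection, prepared from ginseng, Ophiopogon and Schisandra, at 5 mg/kg/d for 28 days. Tissue near the infarcted area was used, and the age of the rats was not given in the sources used here.

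Each group had 4 arrays with a single dye. The labels number the arrays within a group and do not name the animals, so the p-values measure the spread between these arrays. The 3 slides followed the groups closely, since slide 1 held MI replicates 1 to 3, slide 2 held MI replicate 4 and YQFM replicate 1, and slide 3 held the 4 Sham arrays and YQFM replicates 2 to 4. Slide and group therefore cannot be told apart for MI against Sham. The source name of MI replicate 4 gave the Sham group, and that of Sham replicate 4 gave the YQFM group. Their titles, descriptions and group entries gave MI and Sham, and these were used. The arrays detected 211 to 268 miRNAs each, and 263 miRNAs were tested. Among the miRNAs taken as markers of cardiomyocytes, miR-1-3p, miR-133a-3p, miR-133b-3p and miR-499-5p were detected on all 12 arrays, while miR-208a-3p was detected on 1 array and miR-208b-3p on none.

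A mature miRNA guides a silencing complex to messenger RNAs that pair with its seed, and lowers their translation and stability. The 3p strands of the miR-29 family are known to repress collagens, fibrillin, elastin and other genes of the extracellular matrix, and loss of miR-29 has been tied to fibrosis of the heart. The 5p strand of a miR-29 hairpin has another seed and is usually the passenger strand.

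The mature sequences are shown because the 3p members differ by so few bases that the array must separate them by single positions. They were taken from RefSeq (GRCr8), where all 4 members were matched, and the capitals mark the seed, bases 2 to 8 from the 5′ end.
miR-29a-3p: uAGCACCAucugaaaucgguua
miR-29b-3p: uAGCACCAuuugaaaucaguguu
miR-29c-3p: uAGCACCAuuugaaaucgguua
miR-29c-5p: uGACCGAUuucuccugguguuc
The 3p members shared 1 seed, which no other of the 693 mature rat miRNAs in the table had. With positions counted from 1 at the 5′ end and the base of the first-named miRNA first, miR-29a-3p and miR-29c-3p differed only by C10U. miR-29a-3p and miR-29b-3p differed by C10U, G18A, U21G and A22U over 22 compared positions, and miR-29b-3p and miR-29c-3p by A18G, G21U and U22A. The seed of miR-29c-5p was held by that miRNA alone.

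The array read miR-29a-3p and miR-29c-3p with 2 probes each, in which the capital marks the base opposite position 10, the only base that separates these miRNAs.
miR-29a-3p, 19 bases: taaccgatttcaGatggtg
miR-29a-3p, 20 bases: taaccgatttcaGatggtgc
miR-29c-3p, 21 bases: taaccgatttcaAatggtgct
miR-29c-3p, 22 bases: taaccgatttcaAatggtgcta
How far each probe also bound the other miRNA was not tested. In the array's annotation (rn4), miR-29a-3p was read from the minus strand at chr4:58107816-58107834. miR-29b-3p was placed at chr4:58108190-58108211 on the minus strand and at chr13:110967572-110967593 on the plus strand, since 2 genes give the same mature miRNA. miR-29c-3p was placed at chr13:110968102-110968122 and miR-29c-5p at chr13:110968065-110968084, both on the plus strand. In the GRCr8 annotation, used for names, mature sequences and gene neighbours, Mir29a neighbours Mir29b1 and Mir29b2 neighbours Mir29c. Other annotated miRNA genes overlap some of them, Mir3556a with Mir29a, Mir3587 with Mir29b1 and Mir3556b with Mir29c. Mir29b2 and Mir29c overlap a long noncoding RNA gene, LOC102550527, and the annotation used does not separate its exons from its introns.

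All 4 members were detected on all 12 arrays, and none passed the test in any of the 3 comparisons. In MI against Sham, 19 of the 263 tested miRNAs (7.22%) passed an adjusted p of 0.05 in limma, 1 higher (0.38%) and 18 lower (6.84%), and 77 (29.3%) were at an unadjusted p under 0.05. In YQFM against MI, 0 of 263 (0%) passed, with 50 (19.0%) at an unadjusted p under 0.05. In YQFM against Sham, 0 of 263 (0%) passed, with 15 (5.7%) at that unadjusted p. No member was below an unadjusted p of 0.05 in limma, the lowest being 0.0746 for miR-29a-3p in MI against Sham. Leaving out single arrays moved the count for MI against Sham to between 4 (without MI replicate 2 or MI replicate 3) and 62 (without MI replicate 4), and that for YQFM against MI to 28 (without MI replicate 4) and 23 (without YQFM replicate 1). In none of these fits did a member pass. Single miRNAs whose MI and Sham arrays did not overlap made up 12.2% of those tested. The share was 6.46% for YQFM against MI and 6.08% for YQFM against Sham, and no member was among them in any of the 3.

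miR-29a-3p had the highest mean in MI and the lowest in Sham, with a spread that covered the difference. Its log2 scaled signals were 10.63, 10.18, 10.35 and 10.45 on Sham replicates 1 to 4. They were 10.94, 10.74, 10.39 and 10.65 on the MI arrays, and 10.74, 10.35, 10.66 and 10.42 on the YQFM arrays. Of the MI arrays, 3 lay above every Sham array, while MI replicate 3 lay within the Sham range, so that the groups overlapped. Mean and SD (n = 4) were 10.40 ± 0.19 for Sham, 10.68 ± 0.23 for MI and 10.54 ± 0.19 for YQFM. The MI-to-Sham log2 ratio, 0.28 with a standard error of 0.143 (95% interval -0.033 to 0.60), corresponds to 1.22-fold with an interval from 0.977 to 1.51, at an adjusted p of 0.209 in limma. By exact permutation of the arrays, two-sided, p was 0.114, where 4 arrays against 4 cannot go below 0.0286. For YQFM to MI the ratio was -0.14 (95% interval -0.46 to 0.17, limma adjusted p = 0.738), and that of YQFM to Sham was 0.14 (-0.17 to 0.46, limma adjusted p = 0.754). Both probes gave a ratio of MI to Sham of the same sign, 0.27 for the probe of 19 bases and 0.28 for that of 20 bases. With the slide as a block, the log2 ratios of miR-29a-3p became -0.015 for MI to Sham and 0.091 for YQFM to MI. Both depend on slide 2 with 1 MI and 1 YQFM array, since no slide held MI and Sham arrays.

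miR-29b-3p, the member with 2 genes, had nearly the same mean in Sham and MI. Its log2 signals were 9.08, 8.88, 9.11 and 9.24 on the Sham arrays and 9.07, 8.92, 8.93 and 9.39 on the MI arrays. On the YQFM arrays they were 9.04, 8.71, 9.002 and 9.12. The highest MI array was replicate 4 and the lowest of all arrays was YQFM replicate 2, and the 3 groups overlapped. Mean and SD (n = 4) were 9.08 ± 0.15 for Sham, 9.07 ± 0.22 for MI and 8.97 ± 0.18 for YQFM. Its MI-to-Sham log2 ratio had a 95% interval from -0.29 to 0.29, which is 0.817-fold to 1.22-fold, and changes within that range could not be shown with these arrays. The log2 ratios of YQFM to MI and of YQFM to Sham were both -0.11, with limma adjusted p of 0.811 and 0.831.

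miR-29c-3p, which differs from miR-29a-3p by 1 base, had its highest mean in Sham. Its log2 signals were 9.03, 8.66, 8.81 and 8.93 on the Sham arrays, 8.79, 8.60, 8.41 and 8.85 on the MI arrays and 8.73, 8.55, 8.87 and 8.60 on the YQFM arrays. The lowest value was that of MI replicate 3, and the groups overlapped. Mean and SD (n = 4) were 8.86 ± 0.16 for Sham, 8.66 ± 0.20 for MI and 8.69 ± 0.14 for YQFM. Its MI-to-Sham log2 ratio of -0.19 had a standard error of 0.123 (95% interval -0.46 to 0.079, limma adjusted p = 0.325). That of YQFM to MI was 0.024 (-0.25 to 0.30, limma adjusted p = 0.960), and that of YQFM to Sham was -0.17 (-0.44 to 0.10, limma adjusted p = 0.689). Both probes gave negative ratios of MI to Sham, -0.19 for the shorter and -0.20 for the longer.

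miR-29c-5p, from the other arm of the same hairpin, lay close to the lower end of what the arrays could measure. The floor below which signals have no order was 2.38 on the log2 scale. The log2 signals of miR-29c-5p were 4.03, 3.68, 3.74 and 3.92 on the Sham arrays, 3.76, 3.79, 3.70 and 3.94 on the MI arrays and 3.88, 3.83, 4.04 and 3.66 on the YQFM arrays. The groups overlapped throughout. The log2 ratios were -0.047 for MI to Sham (95% interval -0.28 to 0.19), 0.058 for YQFM to MI (-0.18 to 0.30) and 0.011 for YQFM to Sham (-0.23 to 0.25), with limma adjusted p of 0.837, 0.863 and 0.984. Its probe of 21 bases was detected on all 12 arrays and its probe of 20 bases on 1. These probes disagreed in the direction of MI to Sham, with log2 ratios of -0.12 and 0.19. The spots of the shorter probe varied by a median of 18.0%, against 7.21% for the longer probe and 1.70% to 2.30% for the probes of the 3p members.

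**Figure D1:**
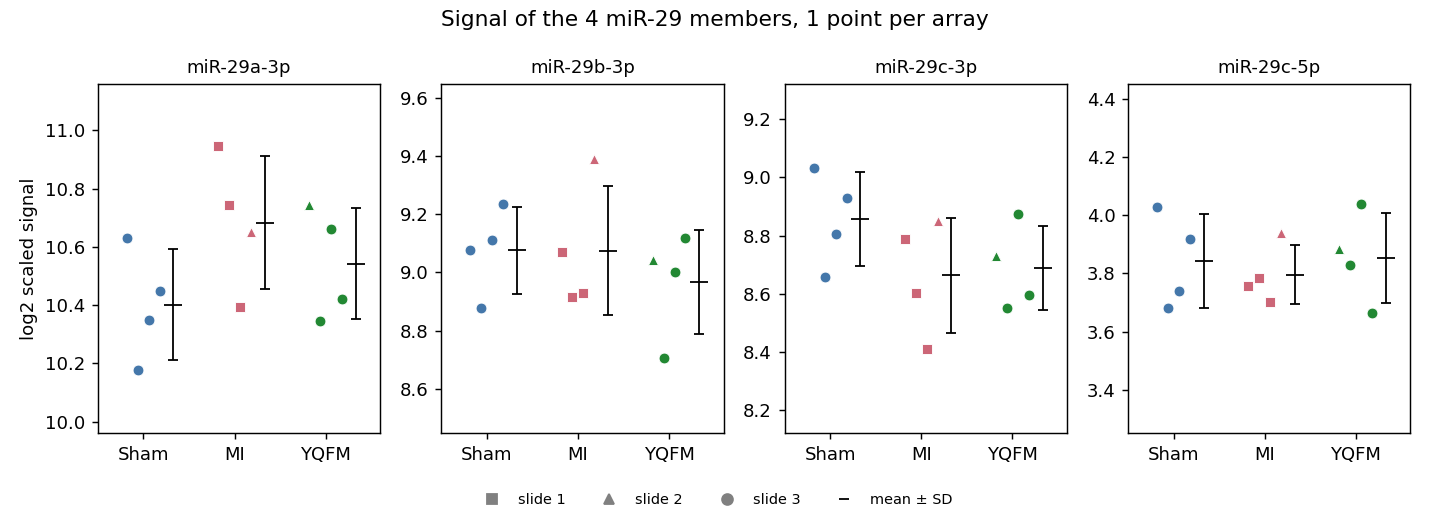
Log2 scaled signal of each miR-29 member (vertical axis, which spans the same range of log2 units in each panel) on the 4 Sham, 4 MI and 4 YQFM arrays, with the slide as the marker and the mean ± SD beside each group. The groups overlapped for every member, and 3 MI arrays of miR-29a-3p lay above all Sham arrays.

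**Figure D2:**
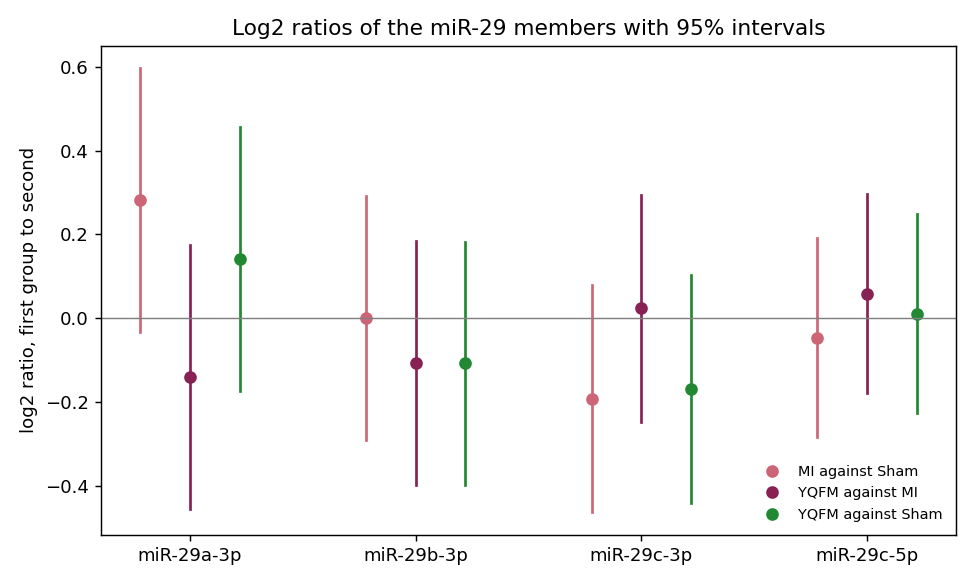
Log2 ratio of the first-named group to the second for each miR-29 member, with the 95% interval from limma as a line. All 12 intervals include 0, and the ratio farthest from 0 was that of miR-29a-3p in MI against Sham, 0.28.

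The order of the groups thus differed between members, but no neighbours in that order differed beyond the spread of the arrays. From high to low it was MI, YQFM and Sham for miR-29a-3p, Sham, YQFM and MI for miR-29c-3p, and YQFM, Sham and MI for miR-29c-5p. For miR-29b-3p Sham and MI had nearly the same mean and YQFM was lowest. These orders depended on the processing. When each miRNA was read by its brightest probe, which raised the median MI-to-Sham ratio of all miRNAs by 0.19, that ratio was 0.052 for miR-29c-3p, 0.13 for miR-29c-5p and 0.26 for miR-29b-3p. With the 75th percentile taken over all miRNAs it was 0.093 for miR-29b-3p and 0.046 for miR-29c-5p, with quantile normalization 0.017 and 0.12, and without scaling 0.031 and -0.015, while for miR-29c-3p it stayed below 0 under these 3 scalings. Over all tested miRNAs the median log2 ratio was -0.045 for MI to Sham, -0.0077 for YQFM to MI and -0.11 for YQFM to Sham. The remaining arms of the Mir29 genes on the array, miR-29a-5p, miR-29b-1-5p and miR-29b-5p, were detected on none of the 12 arrays.

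The members were also set against each other within each array, since a difference of log2 signals within an array does not depend on a scaling by 1 factor per array. Probes bind with different strength, so that only the change of such a difference between groups was read, and not its size. There were 12 such tests, 4 pairs of members in 3 comparisons, and none passed after Benjamini-Hochberg adjustment.

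The difference between miR-29a-3p and miR-29c-3p separated both infarcted groups from Sham. It was 1.60, 1.52, 1.54 and 1.52 on the Sham arrays, 2.15, 2.14, 1.98 and 1.80 on the MI arrays, and 2.01, 1.79, 1.79 and 1.82 on the YQFM arrays. All 8 arrays of infarcted hearts lay above all 4 Sham arrays, and the Sham arrays lay closest together. The mean was 0.47 higher in MI than in Sham, 2.02 ± 0.16 against 1.54 ± 0.039 (SD, n = 4), a 1.39-fold shift of miR-29a-3p relative to miR-29c-3p. It was 0.31 higher in YQFM, 1.85 ± 0.11 (SD, n = 4), than in Sham. In exact two-sided permutation tests p was 0.0286 for each, the smallest p that 4 arrays against 4 allow, and 0.114 after adjustment over the 12 tests. These comparisons share the 4 Sham arrays. Between YQFM and MI the difference was -0.16 and the arrays overlapped (exact permutation p = 0.200, adjusted p = 0.300). Among the 20100 pairs of miRNAs detected on all arrays, the groups did not overlap for 11.6% in MI against Sham, 5.29% in YQFM against MI and 4.06% in YQFM against Sham. Among the 4 pairs of members they did not overlap for 1, 0 and 2.

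The shift was present with every probe. For each combination of a miR-29a-3p probe with a miR-29c-3p probe, the groups did not overlap in MI against Sham, with shifts from 0.45 to 0.48, or in YQFM against Sham, with shifts from 0.28 to 0.39. Without the 2 arrays with conflicting labels the shifts were 0.54 and 0.30.

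The slides moved with the groups here. Within slide 3, which held 4 Sham and 3 YQFM arrays, the shift from Sham to YQFM was 0.26, and these arrays did not overlap either (1.79 to 1.82 against 1.52 to 1.60, exact permutation p = 0.0286, not adjusted). That is the smallest p these arrays allow, and the check was chosen after seeing the data. The share of all miRNA pairs without overlap within this slide was not computed. No slide held MI and Sham arrays. With the slide as a block the shift from Sham to MI was 0.047 and that from MI to YQFM was 0.21, values which both rest on slide 2 with 1 MI and 1 YQFM array. On that slide the difference was 2.01 for YQFM replicate 1 and 1.80 for MI replicate 4, an order opposite to that of the group means. MI replicate 4 is among the 2 arrays with conflicting labels.

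**Figure D3:**
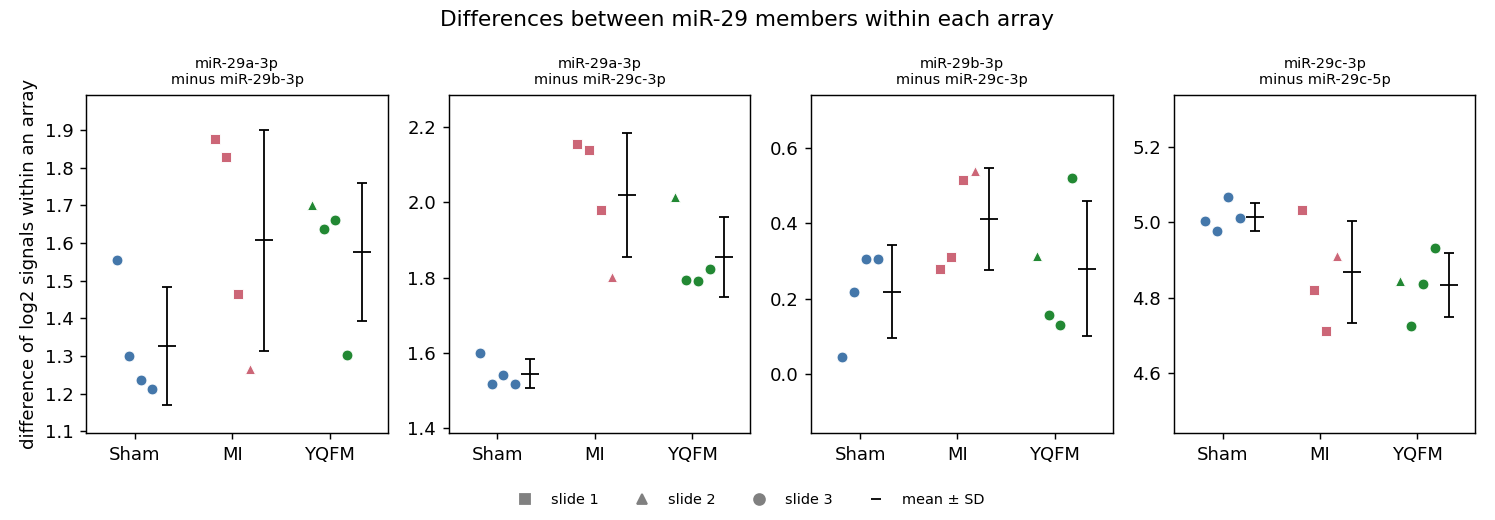
Difference of the log2 signals of 2 miR-29 members within each array (vertical axis), by group, with the slide as the marker and the mean ± SD beside each group. For miR-29a-3p minus miR-29c-3p the 4 Sham arrays lie between 1.52 and 1.60 and the 8 arrays of infarcted hearts between 1.79 and 2.15.

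The difference between the arms of the miR-29c hairpin was also lower in YQFM than in Sham, but it rests on the weak signal of miR-29c-5p. The difference of miR-29c-3p and miR-29c-5p was 5.00, 4.98, 5.07 and 5.01 on the Sham arrays, 4.85, 4.72, 4.83 and 4.93 on the YQFM arrays and 5.03, 4.82, 4.71 and 4.91 on the MI arrays. All YQFM arrays lay below all Sham arrays, while MI replicate 1 lay within the Sham range. The mean of YQFM less that of Sham was -0.18 (exact permutation p = 0.0286, adjusted p = 0.114), and -0.18 within slide 3 also. With the brightest probe of each arm it was -0.12 (exact permutation, adjusted p = 0.171). The miR-29c-5p probe of 20 bases, detected on 1 array, had a YQFM-to-Sham log2 ratio of 0.25, and that of 21 bases had -0.069. For MI against Sham it was -0.15 (exact permutation p = 0.114, adjusted p = 0.229).

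The pairs with miR-29b-3p overlapped in all 3 comparisons. The difference between miR-29a-3p and miR-29b-3p was 1.21 to 1.55 on the Sham arrays, 1.26 to 1.88 on the MI arrays and 1.30 to 1.70 on the YQFM arrays. Its mean was 0.28 higher in MI and 0.25 higher in YQFM than in Sham, with exact permutation p of 0.200 and 0.0571 and adjusted p of 0.300 and 0.171. The difference between miR-29b-3p and miR-29c-3p was 0.19 higher in MI than in Sham (exact permutation p = 0.114, adjusted p = 0.229).

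Over the 12 arrays Pearson's r between 2 members ran from 0.29 to 0.74. These are descriptions of arrays that share the same scaling, and none of the 10 relations computed passed after adjustment. The closest relation was between the arms of miR-29c, with Pearson's r of 0.74 (permutation p = 0.00621, adjusted 0.0621) and Spearman's rho of 0.72 (permutation p = 0.0106, adjusted 0.106). It was 0.63 without the 2 arrays farthest from the median and 0.76 within slide 3. For miR-29b-3p and miR-29c-3p r was 0.60 and rho 0.58 (permutation p = 0.0386 and 0.0529, adjusted 0.193 and 0.264). For miR-29a-3p and miR-29c-3p r was 0.34 and rho 0.31 over the 12 arrays (permutation p = 0.278 and 0.322, adjusted 0.376 and 0.574). After the mean of each group was taken off, r for this pair was 0.82, and within slide 3 it was 0.68. Under quantile normalization the direction turned for both pairs that hold miR-29c-3p with miR-29a-3p or with miR-29c-5p, with r of -0.17 and -0.047. The plot of miR-29a-3p against miR-29c-3p shows groups that overlap on each axis.

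miR-21-5p, a miRNA abundant in cardiac fibroblasts, had an MI-to-Sham log2 ratio of 0.79 (limma adjusted p = 0.194). With the slide as a block it was -0.41, a value that depends on slide 2 with 1 MI and 1 YQFM array. The 12 values of miR-21-5p fell into separate sets, 8 arrays from 7.40 to 7.96 and 4 arrays from 8.67 to 9.34. The upper set was MI replicates 1, 2 and 4 and YQFM replicate 1, and these arrays had miR-29a-3p between 10.65 and 10.94, against 10.18 to 10.66 in the lower set. A relation over all arrays was therefore not given. Within the 8 arrays of the lower set r of miR-29a-3p with miR-21-5p was 0.53 and rho was 0.17 (exact permutation p = 0.182 and 0.701, adjusted 0.376 and 0.701), and r was 0.13 without the 2 arrays farthest from the median. For miR-29b-3p r was 0.42 and rho 0.66 (exact permutation p = 0.304 and 0.0881, adjusted 0.376 and 0.294). Its r was 0.95 without the 2 arrays farthest from its median. For miR-29c-3p r was 0.38 and rho 0.39, and for miR-29c-5p r was 0.39 and rho 0.22. On 3 arrays miR-21-5p lay at the percentile used for the scaling, which fixes its signal there, while no member did on any array.

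**Figure D4:**
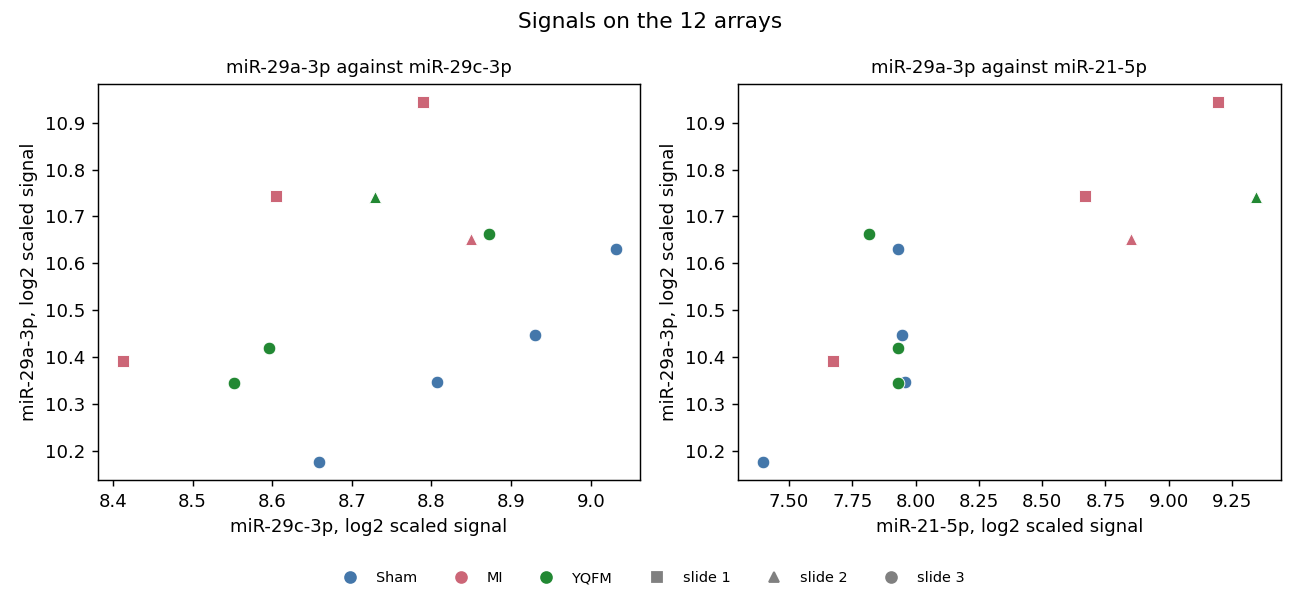
Log2 scaled signal of miR-29a-3p (vertical axes) against that of miR-29c-3p (left) and miR-21-5p (right) on the 12 arrays, with the group as the colour and the slide as the marker. At left the groups overlap in miR-29c-3p, and the Sham arrays have the smallest differences between both signals, 1.52 to 1.60. At right 4 arrays lie apart from the other 8 in miR-21-5p.

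The fibroblast-linked miRNAs miR-21-5p, miR-199a-3p, miR-199a-5p and miR-214-3p had higher means in both infarcted groups than in Sham. Single arrays did not all follow these means. On YQFM replicates 2 to 4 miR-21-5p was 7.93, 7.82 and 7.93, and on MI replicate 3 it was 7.67. These lay within the Sham range of 7.40 to 7.96, while the other 4 infarcted arrays lay above it, at 8.67 to 9.34. On YQFM replicates 2 and 4 and on Sham replicate 1 miR-21-5p lay at the percentile used for the scaling, which fixes its signal there. The summed scaled signal of the 4 miRNAs was 380 to 561 in Sham, 473 to 1104 in MI and 488 to 1543 in YQFM, so that the groups overlapped. All 4 had ratios above 0 in MI against Sham, with a median log2 ratio of 0.67, and in YQFM against Sham, with a median of 0.52, and none of the 4 passed in either comparison. Their part in the shift of the miR-29 members was not tested. For the other marker lists, the median MI-to-Sham log2 ratio was -0.11 for cardiomyocytes, -0.20 for smooth muscle and 0.060 for endothelium. It was -0.024 for leukocytes and -0.20 for erythrocytes. These lists had 2 to 4 tested miRNAs each, and none passed. In bulk tissue, fewer cells of a type and less RNA per cell cannot be told apart.

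A wider list held miRNAs linked to fibrosis, those with collagen, CTGF or TGF-beta pathway genes among their targets or a role in cardiac fibroblasts. With the 4 fibroblast-linked miRNAs included, it had 38 miRNAs. Of these, 37 were on the array and 28 were tested. In MI against Sham 0 of the 28 were higher and 1 was lower, while 7.22% of all 263 tested miRNAs passed. The 1 was miR-30d-5p, of a family known to target CTGF. Its log2 ratio was -0.38 (standard error 0.0828, limma adjusted p = 0.0219). Without single arrays the adjusted p rose above 0.05 in limma for MI replicate 2 (0.0882), MI replicate 3 (0.0766), Sham replicate 1 (0.0697) and Sham replicate 4 (0.0652), with ratios from -0.43 to -0.35 over all arrays left out in turn. The call was also lost with the brightest probe (log2 ratio -0.14, limma adjusted p = 0.207) and with the software's totals (-0.20, limma adjusted p = 0.416), both of which moved the ratio by over 1.5 times. These settings raised the median ratio of all miRNAs as well, by 0.19 and 0.14. The call was lost too in limma with the 75th percentile over all miRNAs (adjusted p = 0.0751), quantile normalization (0.0508), no scaling (0.323), miRNAs detected on all arrays (0.0571), the replicate number as a block (0.0511) and the slide as a block (0.625). The median log2 ratio of the list was 0.094, against -0.045 over all tested miRNAs. In YQFM against MI and in YQFM against Sham 0 passed, and the medians were -0.011 and 0.061. miR-133a-3p, a muscle miRNA that also targets CTGF, had a log2 ratio of 0.020 for MI to Sham (limma adjusted p = 0.943), and the fibroblast-linked miR-214-3p had 0.62 (limma adjusted p = 0.292).

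The miRNAs whose pattern over the 12 arrays was most like that of a member were found among the 200 others detected on all arrays, by Pearson's r and as a description. For miR-29a-3p they were miR-34a-5p (r = 0.93), miR-100-5p (0.90) and let-7g-5p (0.88). For miR-29b-3p they were miR-185-5p (0.76), miR-130a-3p (0.74) and miR-28-5p (0.69). miR-29c-3p was most like miR-149-5p (0.92), miR-30a-5p (0.90) and miR-1b (0.90), and miR-29c-5p was most like miR-1b (0.82), miR-149-5p (0.79) and miR-150-5p (0.77). The lists of miR-29c-3p and miR-29c-5p thus shared miR-1b and miR-149-5p, and those of miR-29a-3p and miR-29c-3p shared none.

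The deposited processed values of miR-29c-5p differed from the total that the scanner software wrote for it. On MI replicates 2 and 3 and Sham replicates 1, 2 and 3 the software's total was 296 to 552, and the deposited value was 7.99 to 13.2. On these 5 arrays the total of miR-29c-5p equalled the sum of both arms, miR-29c-3p and miR-29c-5p, within a tolerance of 0.1%. On the other 7 arrays both sources gave the same value, 14.7 to 21.0. Such differences were not particular to miR-29c-5p, since over the series the sources differed by over 1% for 673 of 9096 miRNA values. None of the 5 arrays was a YQFM array, so that a comparison made from the software's totals gave a log2 ratio of YQFM to Sham of -3.66 for miR-29c-5p, while the spot signals gave 0.011. The deposited values also differed from the spot signals, with 0.28 for YQFM to Sham. For YQFM to MI they gave 0.28 and the spot signals 0.058.

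**Figure D5:**
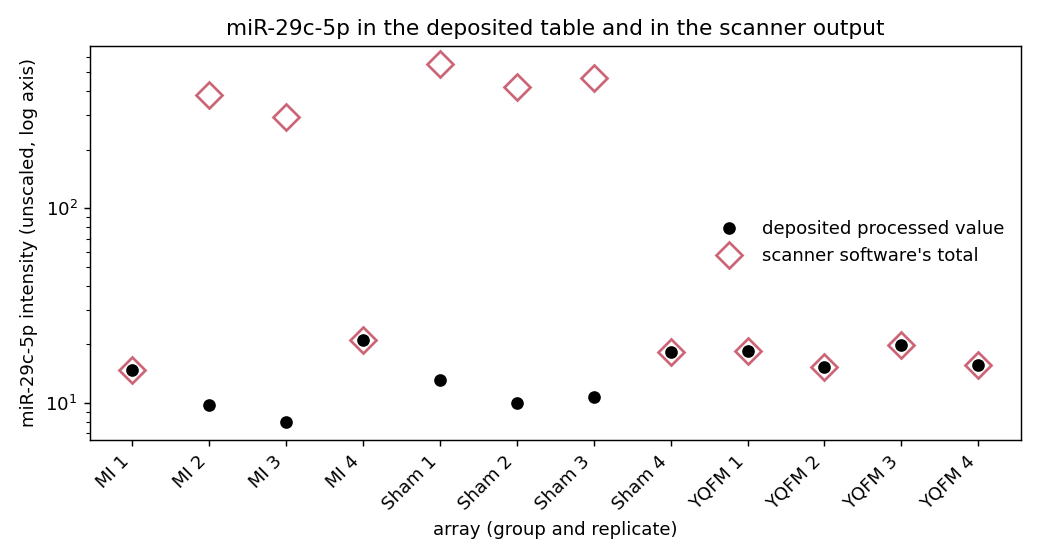
Unscaled intensity of miR-29c-5p on each array (log axis), as the deposited processed value (filled circles) and as the scanner software's total (open diamonds). The 5 arrays on which they part lie between 296 and 552 in the total and between 7.99 and 13.2 in the deposited value.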

How the data were processed

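The authors labeled the RNA with Cy3, hybridized it to Agilent rat miRNA arrays and deposited the scanner output, in which Agilent Feature Extraction 10.7.1.1 had written the background-subtracted intensity of each spot, and a table of processed intensities, neither scaled between arrays. The methods name GeneSpring and fold change criteria for the analysis. All columns were matched to a sample by its labels.

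From the spot intensities, control and outlier spots were left out. The remaining spots of each probe, and then the probes of each miRNA, were averaged. Arrays were brought to a common 75th percentile of the 201 miRNAs that all of them detected, values were raised to a floor of 5.20, and log2 was taken. A miRNA was detected when over 50% of the spots of a probe were well above background. The 263 miRNAs detected on at least 2 arrays of a group were tested by limma 3.58.1 (R 4.3.3) over all 12 arrays, two-sided, with Benjamini-Hochberg adjustment at 0.05. Differences between members within an array were compared by exact two-sided permutation tests, and correlations with 100000 permutations. Python 3.11.15, pandas 2.3.3 and matplotlib 3.10.9 were used. The number of arrays and the signal over background (24.4% to 31.6% of spots) limit the precision. No spot was saturated.

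The named miRNAs were the members, the other arms of the Mir29 genes, the 3 miRNAs most like each member over the arrays, and from the fibrosis list those that passed with miR-21-5p, miR-133a-3p and miR-214-3p. The cardiomyocyte and fibroblast miRNAs were named as cell type markers, and those of smooth muscle, endothelium, leukocytes and erythrocytes were summarized as lists. The members, lists and tests were chosen with earlier results of these data known. The alternatives were other background corrections, probe summaries, scalings, floors and filters, the deposited processed values, fits without the third group, the slide or the replicate number as a block, the methods' t-test, and leaving out arrays. Chosen after seeing the data were the quantile scaling, single probes, slide and label checks of the within-array differences, the removal of miRNAs at the floor on every array, and the split of the arrays by miR-21-5p. The replicate numbers were not used to pair arrays, since the deviations of same-numbered arrays correlated between -0.64 and 0.34. Other assays of the study were not analysed here.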

Additional observations from a re-analysis of the deposited data

Results flagged for a closer look

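In groups of 4 arrays, an array stood apart when its gap to the nearest other array, as a share of the range of the group, exceeded Dixon's 95% critical value. Of the 24 groups checked, 2 held such an array, and chance gives about 1 in 20. YQFM replicate 4 had a difference between miR-29a-3p and miR-29b-3p of 1.30, with the next array of its group at 1.64 and a share of 0.841. YQFM replicate 1, the YQFM array on slide 2, had a difference between miR-29a-3p and miR-29c-3p of 2.01, with the next at 1.82 and a share of 0.853. Without it the mean of YQFM less that of Sham was 0.26 in place of 0.31.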

How the results depend on the processing

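No member passed the threshold in any of the 340 fits of a log2 ratio with a test, the lowest limma adjusted p being 0.0546 (miR-29a-3p, MI against Sham, brightest probe). The ratio of miR-29a-3p for YQFM to Sham and that of miR-29c-3p for YQFM to Sham kept their sign under all 29 alternatives. Many of these cannot change the ratio, such as leaving out an MI array, a lower floor, another filter or the t-test. The 29 are therefore not separate checks. For the directions that changed, the cause was not tested unless named.

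With the slide as a block, miR-29a-3p gave -0.015 for MI to Sham and 0.091 for YQFM to MI, miR-29b-3p 0.21 for MI to Sham, miR-29c-3p -0.12 for YQFM to MI, and miR-29c-5p 0.056 for MI to Sham and -0.055 for YQFM to MI. For MI to Sham miR-21-5p gave -0.41 and miR-214-3p -1.45. All values with the slide as a block that involve MI depend on slide 2 with 1 MI and 1 YQFM array. The within-array difference of miR-29a-3p and miR-29b-3p became -0.23 (MI against Sham) and 0.44 (YQFM against MI), and that of miR-29a-3p and miR-29c-3p 0.047 and 0.21. Within slide 2, 1 array of each group, YQFM less MI was 0.091 for miR-29a-3p, -0.35 for miR-29b-3p, and 0.44 and 0.21 for those differences.

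For miR-29b-3p, MI to Sham was 0.0019 with normexp, 0.18 with the software's totals, 0.26 with the brightest probe, 0.093 with the 75th percentile over all miRNAs, 0.017 with quantile normalization and 0.031 without scaling. YQFM to Sham was 0.012 with the totals, 0.0031 with the brightest probe, 0.0083 with the percentile over all and 0.048 without scaling, which also gave 0.017 for YQFM to MI. These scalings moved the median of all miRNAs, by 0.19 for the brightest probe in MI against Sham and by 0.14 without scaling in YQFM against Sham. For miR-29c-3p, the brightest probe gave 0.052 for MI to Sham and -0.13 for YQFM to MI, and the totals -0.037 for the latter. For miR-29c-5p, MI to Sham was 0.020 with normexp, 0.13 with the brightest probe, 0.0060 with the deposited values, 0.046 with the percentile over all and 0.12 with quantile normalization. YQFM to MI was -2.40 with the totals, which hold both arms on 5 arrays, and -0.077 with the brightest probe, and YQFM to Sham was -3.66 with the totals.

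Quantile normalization gave 0.056 for miR-29c-3p minus miR-29c-5p in YQFM against MI, and correlations of -0.17 (miR-29a-3p with miR-29c-3p), -0.047 (miR-29c-3p with miR-29c-5p), -0.055 (miR-29a-3p with miR-21-5p) and -0.19 (miR-29c-5p with miR-21-5p). Without scaling, when arrays differ in brightness, r was 0.74 for miR-29a-3p with miR-29b-3p and also with miR-29c-3p, 0.79 with miR-29c-5p, 0.88 for miR-29b-3p with miR-29c-3p, 0.82 with miR-29c-5p and 0.92 for miR-29c-3p with miR-29c-5p. With miR-21-5p it was 0.82, 0.78, 0.73 and 0.77 for miR-29a-3p, miR-29b-3p, miR-29c-3p and miR-29c-5p, and all 10 passed.

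The count for MI against Sham, 19, was 5 with normexp, 0 with the totals (limma), 2 with the brightest probe, 9 with the deposited values, 3 with the percentile over all, 2 with quantile normalization, 0 without scaling, 29 without the miRNAs at the floor on every array, 7 among miRNAs detected on all arrays, 58 without the 2 arrays with conflicting labels, 0 with the slide as a block and 6 with the methods' t-test. For YQFM against MI it was 1, 1 and 2 with normexp, the brightest probe and quantile normalization, and 28 without the 2 arrays. With the replicate number as a block the count for MI against Sham was 10, and the block changed no call of a member, while miR-30d-5p lost its call (limma adjusted p = 0.0511).

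Leaving out each array in turn gave 4 to 62 for MI against Sham and 0 to 28 for YQFM against MI. The ratio for MI to Sham ran from -0.10 to 0.053 for miR-29b-3p, -0.10 to 0.015 for miR-29c-5p and -0.019 to 0.081 for miR-133a-3p (-0.00087 without the 2 arrays). YQFM to MI ran from -0.060 to 0.086 for miR-29c-3p and -0.0033 to 0.12 for miR-29c-5p, whose YQFM to Sham ran from -0.050 to 0.074. YQFM less MI ran from -0.15 to 0.058 for miR-29a-3p minus miR-29b-3p and -0.087 to 0.020 for miR-29c-3p minus miR-29c-5p, and YQFM less Sham from -0.019 to 0.11 for miR-29b-3p minus miR-29c-3p. The shift of miR-29a-3p minus miR-29c-3p ran from 0.43 to 0.55 for MI against Sham and from 0.26 to 0.33 for YQFM against Sham.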
